A study of Mus musculus with 16 samples.

Results

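The integrated stress response genes described here are 9 named mouse genes: the transcription factors Atf4, Atf5 and Ddit3, the pseudokinase Trib3, the amino acid enzymes Asns, Psat1 and Phgdh, the glutathione-degrading enzyme Chac1 and the phosphatase subunit Ppp1r15a. They were matched by symbol to the Ensembl gene IDs of the deposited expression table, and 6 of the 9 had a row among its 12021 genes: Atf4, Atf5, Ddit3, Asns, Chac1 and Ppp1r15a. Expression of Trib3, Psat1 and Phgdh was not analysed here; their promoters were searched with the rest. All 6 entered every test. The study sequenced ribosomal RNA-depleted total RNA of tibialis anterior, a shin muscle made mostly of fast fibres, from 4 mouse models of cancer cachexia, the loss of muscle and fat that accompanies tumours. Each model had 2 cachectic and 2 control libraries, 16 in all. The KPP cachectic and KPP control mice were C57BL/6J, the KPC cachectic and KPC control mice are labelled only as mixed, the C26 cachectic and C26 control mice were CD2F1, and the LLC cachectic and LLC control mice were C57BL/6J. C26 and LLC are the names of transplantable mouse tumour cell lines, a colon and a lung carcinoma. The labels give no alleles, Cre driver, tumour site, agent, age or time for any group, so between models of different strain, model and strain cannot be told apart. KPP and LLC share a strain, and each cachectic group shares its controls' strain label. They do not say that the 2 libraries of a group came from separate mice or that mice were not pooled, so p-values measure only the spread between these libraries, which may be technical.

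In the integrated stress response, kinases that sense amino acid shortage, misfolded protein in the endoplasmic reticulum, haem shortage or double-stranded RNA phosphorylate the translation initiation factor eIF2. General protein synthesis then drops while translation of a few messages with upstream reading frames, Atf4 first among them, increases. ATF4 pairs with C/EBP-family and related factors to switch on amino acid synthesis and transport genes, Ddit3, Atf5, Chac1, Trib3 and Ppp1r15a, and the product of Ppp1r15a brings a phosphatase to eIF2 that reverses the phosphorylation. Because much of the control of ATF4 is translational, its messenger level is only part of its regulation.

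Sequences at the starts of 3 measured members are shown because ATF4 acts through a short element, TGATGNAA, in the promoters of its target genes, and because these stretches held it or the related cyclic AMP response element, TGACGTCA. RefSeq windows on GRCm38.p6 of 250 bases before to 50 after the gene start were found for 9 of 9 members, and each was searched on both strands for both elements; the matches below overlap no other match. The 2 measured members with TGATGNAA were Chac1, at chr2:119351038-119351067 on the plus strand, and Asns, at chr6:7693214-7693243 on the minus strand; Ppp1r15a, at chr7:45526269-45526291 on the minus strand, held TGACGTCA. Each is written along the gene's own strand with the match in capitals, and in Chac1 the match lies on the opposite strand and reads as its reverse complement.
Chac1: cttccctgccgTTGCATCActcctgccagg
Asns: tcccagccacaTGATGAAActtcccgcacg
Ppp1r15a: cgcctctccggTGACGTCAgcac
The matched bases lie at positions -193 to -186 of Chac1, -23 to -16 of Asns and -12 to -5 of Ppp1r15a, counted with -1 as the base before the RefSeq start. For Asns that start lies inside the longer GENCODE M21 gene span given with its values, so by GENCODE the stretch is within the gene's first bases. TGATGNAA occurred in 3 of 9 members (Trib3 was the other one), in 3.97% of all 32851 windows and in 2.63% of the 8891 tested genes with a window. TGACGTCA occurred in 1 of 9 members, in 1.79% of all windows and in 3.67% of the tested genes with a window.

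Library totals, recovered as whole reads from the deposited log2 values, were 28584279 to 46972882 reads. Levels are given as reads per 1000000 reads of the listed genes (RPM) and, between genes, also per kilobase of exon (RPKM). The 10 muscle fibre markers summed to 280715 to 338604 RPM in cachectic and 276585 to 290730 in control libraries, and none of the 9 T and B cell markers was among the tested genes. The SD of the log2 difference between the 2 libraries of a group was 0.534 for KPC cachectic and 0.561 for LLC cachectic, against 0.346 and 0.359 for the other 2 cachectic groups and 0.239 to 0.291 for the control groups. KPC cachectic 2 stood apart from its partner: over all genes it correlated at 0.988 with the KPC control libraries and at 0.965 with KPC cachectic 1. LLC cachectic 2 correlated at 0.969 with the LLC control libraries and at 0.964 with LLC cachectic 1. Mitochondrially encoded genes took 3.68% to 7.67% of reads in cachectic and 6.18% to 7.46% in control libraries, and the median gene was 0.28 higher on the log2 scale in C26 cachectic than in C26 control libraries. Member changes were therefore also computed with each library centred on its own median. In bulk muscle, fewer cells of a type and less RNA per cell cannot be told apart.

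The members did not all move in one direction. Averaged over the 4 models, Asns, Ppp1r15a and Atf4 rose and Ddit3 fell in cachectic muscle, and neither Atf5 nor Chac1 passed the test. Within single models, Atf4 and Asns rose in C26 and Ddit3 fell in LLC, while no member passed in KPP or KPC. Changes are given as cachectic minus control on the log2 scale with the standard error of limma's moderated fit to all 16 libraries (2 per group), and a gene is called at a Benjamini-Hochberg adjusted p under 0.05 over all 12021 genes. By that rule, 0 of 6 members were called in KPP, where 1.78% of all genes were (0.707% higher and 1.07% lower), and 0 of 6 in KPC, where 0% were. In C26, 2 of 6 members rose, against 23.2% of all genes that rose, 5.12% that fell and 28.4% called in either direction. In LLC, 1 of 6 fell, against 3.66% of all genes that fell, 3.42% that rose and 7.08% called. Over the mean of the models, 3 of 6 rose and 1 of 6 fell, against 27.3% of all genes that rose, 13.8% that fell and 41.1% called. At an unadjusted p under 0.05 the member counts were 0 in KPP, 1 in KPC, 4 in C26, 3 in LLC and 5 in the mean, where 21.1%, 8.61%, 44.4%, 29.3% and 51.2% of all genes were under it. The median member change was 0.09 in KPP, 0.46 in KPC, 0.89 in C26, 0.62 in LLC and 0.54 in the mean, where the medians of all genes were 0.00, 0.01, 0.28, 0.10 and 0.10.

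**Figure D1:**
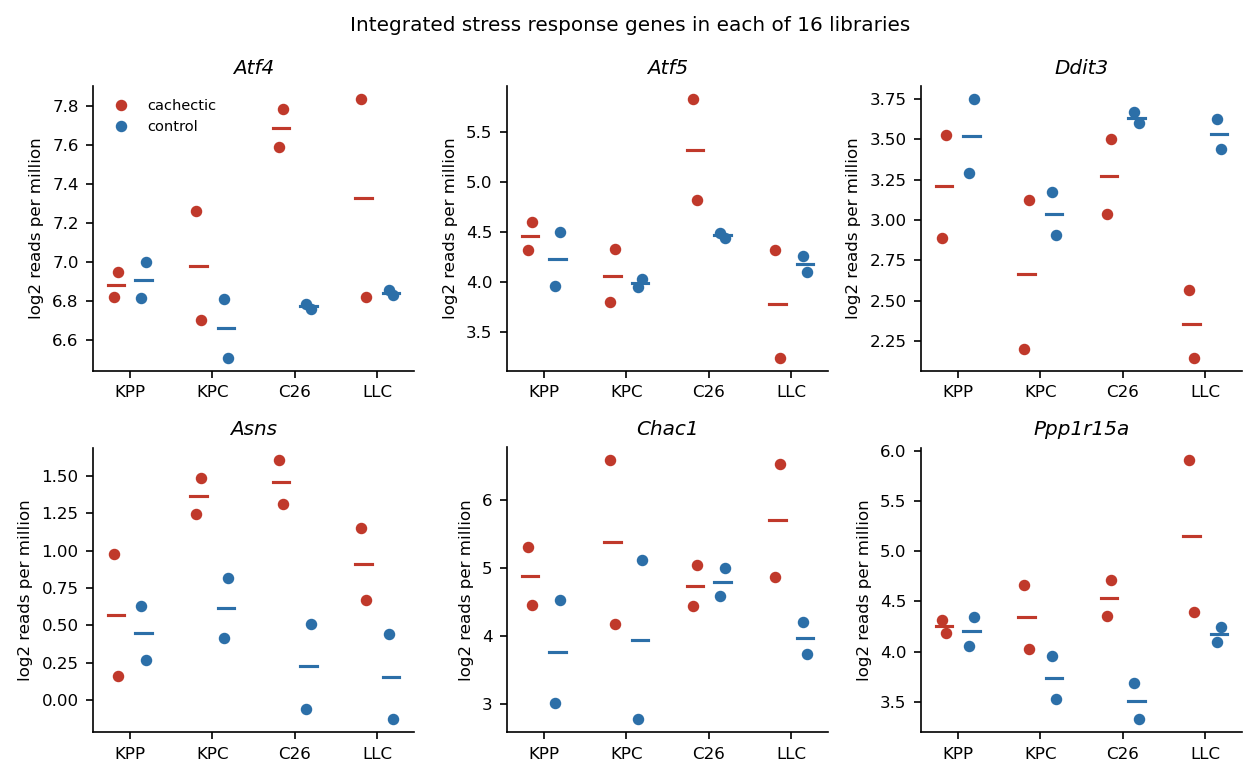
Log2 RPM of the 6 measured members, 1 panel per gene with its own vertical axis that does not start at 0, cachectic libraries left of control libraries within each model; points are the 2 libraries of a group and short lines their mean. Both C26 cachectic libraries lie above every control library for Atf4, both LLC cachectic libraries lie below every control library for Ddit3, and the 2 KPC cachectic libraries differ by 2.41 for Chac1.

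Atf4, the transcription factor at the centre of the response (ENSMUSG00000042406, chr15:80255184-80257541, plus strand, GRCm38), was the most abundant member per kilobase, with a median of 48.0 RPKM over the 16 libraries. It had 192 and 221 RPM in C26 cachectic libraries, against 110 and 108 in C26 control libraries. In LLC it had 228 and 113 RPM in cachectic libraries, against 116 and 114 in control libraries. Both C26 cachectic libraries were above both controls, as was so for 59.6% of all genes in that model, whereas in LLC only cachectic 1 was high and cachectic 2 lay just below both controls. The KPC values were 153 and 104 RPM in cachectic and 112 and 90.9 in control libraries, and the KPP values were 113 and 123 in cachectic and 112 and 128 in control libraries. Both of these models overlapped.

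The change of Atf4 was 0.92 ± 0.27 in C26 (adjusted p = 0.0271), 0.49 ± 0.27 in LLC (adjusted p = 0.236), 0.32 ± 0.27 in KPC (adjusted p = 0.702) and -0.02 ± 0.27 in KPP (adjusted p = 0.972). The mean over models was 0.42 ± 0.13, a 1.34-fold rise (adjusted p = 0.0236). Atf4 was called in C26 and in the mean, and its change was positive in 3 of 4 models. The C26 call was lost without any of the 4 C26 libraries (highest adjusted p = 0.128) and when each library was centred on its median (0.68, adjusted p = 0.0737), whereas the mean stayed called after centring (0.35, adjusted p = 0.0370). The mean also lost its call without KPP control 1, KPC control 2, KPC cachectic 1 or C26 cachectic 2 (highest adjusted p = 0.0571). In LLC the change was -0.022 without LLC cachectic 1 and 0.99 (adjusted p = 0.00473) without LLC cachectic 2. LLC cachectic 1 also had the highest erythroid marker sum of all libraries: the 6 listed markers summed to 1603 to 3296 RPM in LLC cachectic and 144 to 164 in LLC control libraries, and their part in the Atf4 level was not tested.

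Atf5, a related transcription factor known in mammalian cells for mitochondrial stress signalling (ENSMUSG00000038539, chr7:44812256-44816658, minus strand), did not pass in any model or in the mean. C26 cachectic libraries had 56.7 and 28.1 RPM, against 22.5 and 21.7 in C26 control libraries. LLC cachectic libraries had 19.9 and 9.43, against 19.2 and 17.1 in LLC control libraries. Atf5 was thus high in C26 cachectic 1 and low in LLC cachectic 2, with both C26 cachectic libraries above both controls (59.6% of all genes) and the LLC groups overlapping. KPC and KPP libraries ranged more narrowly, at 13.9 and 20.1 in KPC cachectic, 15.4 and 16.3 in KPC control, 19.96 and 24.1 in KPP cachectic and 15.5 and 22.5 in KPP control libraries. The change was 0.86 ± 0.35 in C26 (adjusted p = 0.0832), -0.40 ± 0.35 in LLC (adjusted p = 0.454) and 0.19 ± 0.18 in the mean (adjusted p = 0.403). The C26 change was 0.35 without C26 cachectic 1 and 1.36 without C26 cachectic 2, neither called, and it passed at its size of 0.86 without LLC cachectic 1 (adjusted p = 0.0335) or LLC cachectic 2 (adjusted p = 0.0333). The 5′ end of Atf5 overlaps Nup62 and Il4i1 on the opposite strand, and the strand setting of the counting is not given in the sources used here, so reads of the overlap cannot be told apart.

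Ddit3, which encodes CHOP, a factor induced by ATF4 and known for promoting cell death under prolonged stress (ENSMUSG00000025408, chr10:127290774-127296288, plus strand), was lower in cachectic muscle, in the direction opposite to Atf4 and Asns. LLC cachectic libraries had 5.92 and 4.43 RPM, against 12.3 and 10.9 in LLC control libraries. C26 cachectic libraries had 8.21 and 11.3, against 12.7 and 12.1 in C26 control libraries. Both cachectic libraries lay below both controls in these 2 models, as did 23.6% of all genes in LLC and 16.9% in C26. KPC cachectic libraries had 4.604 and 8.73, against 9.01 and 7.51 in KPC control libraries, and KPP cachectic libraries had 7.42 and 11.5, against 9.79 and 13.5 in KPP control libraries. Those 2 models overlapped, with cachectic 1 the lowest library of each.

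The change of Ddit3 was -1.18 ± 0.30 in LLC (adjusted p = 0.0408), -0.36 ± 0.30 in C26 (adjusted p = 0.357), -0.38 ± 0.30 in KPC (adjusted p = 0.695) and -0.31 ± 0.30 in KPP (adjusted p = 0.593). It was negative in 4 of 4 models, and the mean of -0.56 ± 0.15 (adjusted p = 0.0122) put cachectic muscle at 0.680 times the control level. The mean stayed called without each library in turn (highest adjusted p = 0.0324) and after centring (-0.63, adjusted p = 0.00865). The LLC call held after centring (-1.24, adjusted p = 0.0371) but was lost without any of the 4 LLC libraries, without any of the 6 control libraries of the other models (highest adjusted p of all these = 0.193), and in a fit of the 4 LLC libraries alone (adjusted p = 0.118). The 3′ end of Ddit3 overlaps Mars, a methionyl-tRNA synthetase gene on the opposite strand; Mars, given because of this overlap, had a mean change of 0.31 ± 0.11 (adjusted p = 0.0434), opposite in sign to Ddit3. A second annotated gene named Ddit3 overlaps it on the same strand and was not analysed here.

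Asns, the enzyme that makes asparagine from aspartate and glutamine (ENSMUSG00000029752, chr6:7675169-7693254, minus strand), was the least abundant member, at a median of 0.568 RPKM and 33 to 119 reads per library. C26 cachectic libraries had 3.04 and 2.49 RPM, against 0.958 and 1.43 in C26 control libraries. KPC cachectic libraries had 2.37 and 2.80, against 1.34 and 1.76 in KPC control libraries. LLC cachectic libraries had 2.23 and 1.59, against 1.36 and 0.914 in LLC control libraries. In these 3 models both cachectic libraries were above both controls, as were 59.6% of all genes in C26, 15.8% in KPC and 33.8% in LLC. KPP overlapped, with 1.97 and 1.12 in cachectic and 1.55 and 1.21 in control libraries.

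The change of Asns was 1.23 ± 0.34 in C26, a 2.35-fold rise (adjusted p = 0.0232), 0.76 ± 0.34 in LLC (adjusted p = 0.163), 0.75 ± 0.34 in KPC (adjusted p = 0.576) and 0.12 ± 0.34 in KPP (adjusted p = 0.875). The mean of 0.72 ± 0.17, a 1.64-fold rise, had an adjusted p of 0.00687, the lowest of the 6 members, and was positive in 4 of 4 models. It stayed called without each library in turn (highest adjusted p = 0.0201) and after centring (0.64, adjusted p = 0.0123). The C26 call was lost without any of the 4 C26 libraries (highest adjusted p = 0.156) and after centring (1.00, adjusted p = 0.0641). A stricter filter that kept genes with a mean log2 level of at least 2 removed Asns, whose mean log2 level was 0.72.

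Chac1, which breaks down glutathione and is a known ATF4 target (ENSMUSG00000027313, chr2:119351229-119354381, plus strand), was the most variable member. LLC cachectic libraries had 29.2 and 92.7 RPM, against 18.4 and 13.3 in LLC control libraries. KPC cachectic libraries had 95.7 and 18.0, against 6.82 and 34.8 in KPC control libraries. Both cachectic libraries were above both controls in LLC (33.8% of all genes), and the groups overlapped in KPC, where the 2 control libraries differed by 2.35 on the log2 scale and the 2 cachectic libraries by 2.41. KPP cachectic libraries had 39.8 and 22.0, against 8.04 and 23.0 in KPP control libraries, and C26 cachectic libraries had 21.6 and 32.8, against 24.1 and 31.9 in C26 control libraries. C26 was the model in which Atf4 and Asns were called, and there the change of Chac1 was -0.06 ± 0.85 (adjusted p = 0.962). The other changes were 1.73 ± 0.85 in LLC (adjusted p = 0.193), 1.43 ± 0.85 in KPC (adjusted p = 0.622), 1.12 ± 0.85 in KPP (adjusted p = 0.483) and 1.06 ± 0.43 in the mean (adjusted p = 0.0639). Without each library in turn the change ranged over 0.90 to 2.57 in LLC, 0.22 to 2.64 in KPC and 0.36 to 1.88 in KPP. The mean passed without KPP control 2, KPC control 2, KPC cachectic 2 or LLC cachectic 1 (adjusted p = 0.0136 to 0.0484).

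Ppp1r15a, also known as GADD34, the stress-induced subunit that directs a phosphatase to eIF2 (ENSMUSG00000040435, chr7:45522916-45526268, minus strand), was higher in cachectic than in control libraries of 3 models. LLC cachectic libraries had 59.9 and 21.0 RPM, against 17.2 and 19.0 in LLC control libraries. C26 cachectic libraries had 20.4 and 26.2, against 12.9 and 10.02 in C26 control libraries. KPC cachectic libraries had 25.4 and 16.3, against 15.5 and 11.5 in KPC control libraries. Both cachectic libraries were above both controls in these 3 models, as were 33.8% of all genes in LLC, 59.6% in C26 and 15.8% in KPC, and LLC cachectic 1 was the highest library of all. KPP overlapped, with 19.9 and 18.2 in cachectic and 16.6 and 20.3 in control libraries.

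The change of Ppp1r15a was 1.02 ± 0.38 in C26 (adjusted p = 0.0573), 0.97 ± 0.38 in LLC (adjusted p = 0.113), 0.60 ± 0.38 in KPC (adjusted p = 0.635) and 0.05 ± 0.38 in KPP (adjusted p = 0.960). No single model passed in the fit of all 16 libraries. In C26 it passed at the same size in a fit of the 4 C26 libraries alone (adjusted p = 0.00683). The share of all genes called in that fit is not given here. The mean of 0.66 ± 0.19, a 1.58-fold rise, passed (adjusted p = 0.0152), also without each library in turn (highest adjusted p = 0.0392) and after centring (0.59, adjusted p = 0.0212). In LLC the change was 1.73 (adjusted p = 0.00130) without LLC cachectic 2 and 0.22 without LLC cachectic 1. The 3′ end of Ppp1r15a overlaps Tulp2 on the opposite strand, which was not analysed here.

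**Figure D2:**
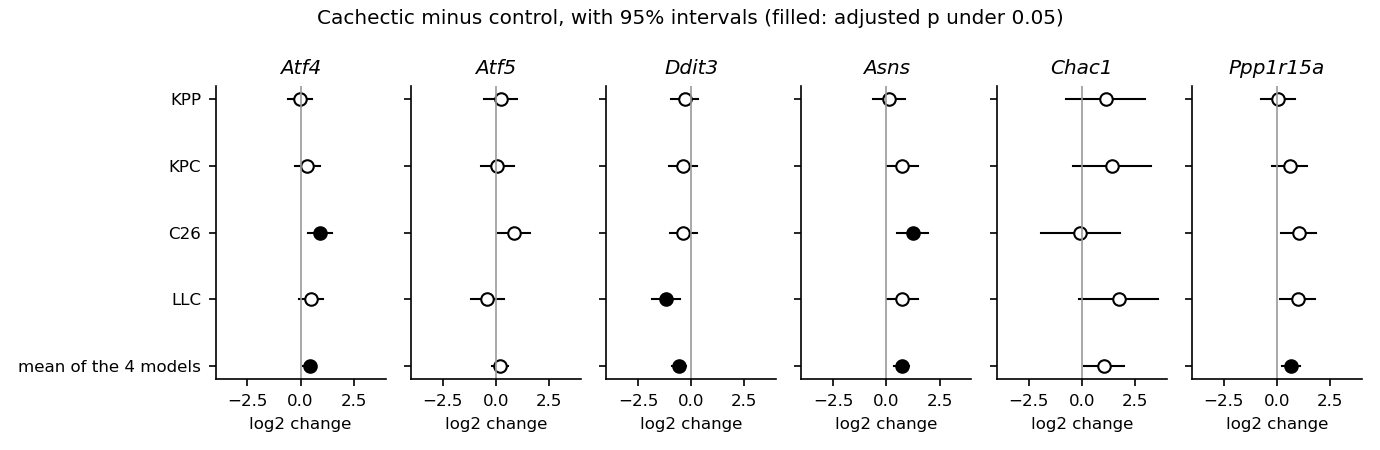
Change of each member, cachectic minus control on the log2 scale, in each model and in the mean of the 4 models; points are limma estimates, bars their 95% confidence intervals, and filled points passed at an adjusted p under 0.05 over all genes. Ddit3 lies left of 0 in every model, with -1.18 in LLC, and Asns lies right of 0 in every model, with 1.23 in C26.

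The 4 models were then compared with each other. No member passed the F test of the 4 changes, which called 0.116% of all genes; at an unadjusted p under 0.05 the member count was also 0, where 15.9% of all genes were under it. The widest contrast for Atf4, KPP minus C26, was -0.94 ± 0.38 with a 95% interval of -1.76 to -0.12 (adjusted p = 0.195). For Ddit3, C26 minus LLC was 0.81 ± 0.42 with an interval of -0.11 to 1.73 (adjusted p = 0.423). None of the 6 members was called in any of the 6 pairwise differences. At an unadjusted p under 0.05 the member count was 2 in KPP minus C26, where 20.6% of all genes were under it. It was 1 in C26 minus LLC, where 13.7% were, and 0 in the others. Besides Atf4 these were Asns in KPP minus C26 (-1.11 ± 0.48, interval -2.16 to -0.07, adjusted p = 0.221) and Atf5 in C26 minus LLC (1.26 ± 0.50, interval 0.17 to 2.34, adjusted p = 0.289). Of all genes, 0.299% were called in KPP minus C26, 0.116% in C26 minus LLC, 0.0582% in KPC minus C26, 0.0333% in KPP minus LLC, 0.025% in KPP minus KPC and 0% in KPC minus LLC. For Atf4, C26 minus LLC was 0.43 ± 0.38 with an interval of -0.39 to 1.25 (adjusted p = 0.645). The calls of Atf4 in C26 and of Ddit3 in LLC thus go with differences between these models that were tested and did not pass, and whose intervals are wide. The F test between models depended on the LLC cachectic libraries. With all libraries the F statistic was 2.16 for Atf4 and 1.43 for Ppp1r15a. It was 7.61 for Atf4 and 8.12 for Ppp1r15a without LLC cachectic 2, a fit that leaves 1 library in that group. Without LLC cachectic 2 the LLC change was 0.99 for Atf4 and 1.73 for Ppp1r15a, and without LLC cachectic 1 it was -0.022 and 0.22. No member passed the F test between the 4 control groups (0 of 6, against 4% of all genes, and 0 at an unadjusted p under 0.05, against 17.7% of all genes).

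The calls of these members changed when C26 or LLC was left out of the mean over models. With C26 left out of it, an alternative chosen after the data were seen, only Ddit3 of the 6 members was called, and Atf4 (0.26, adjusted p = 0.231), Asns (0.54, adjusted p = 0.0669) and Ppp1r15a (0.54, adjusted p = 0.0897) were not. With LLC left out, only Asns was called, and Ddit3 (-0.35, adjusted p = 0.140), Atf4 (0.40, adjusted p = 0.0647) and Ppp1r15a (0.56, adjusted p = 0.0692) were not. With KPP or KPC left out, 4 members were called. The shares of all genes called in these means are not given here, so the counts describe only the members.

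The KPC comparison depended on which libraries were used. Without KPC cachectic 2 alone no member was called in KPC, where 7.89% of all genes then were. With KPC cachectic 2 and LLC cachectic 1 both left out, also chosen after the data were seen, KPC had 3 called members, Atf4 at 0.60 (adjusted p = 0.0110), Chac1 at 2.64 (adjusted p = 0.0378) and Ppp1r15a at 0.92 (adjusted p = 0.0141), and 2614 of all genes (21.7%) were called in KPC in place of 0. C26 then had 4 called members, with 48.5% of all genes called. Atf4 in LLC was at -0.022 in that fit, and the mean of Atf5 was -0.012.

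Among the 15 pairs of members, levels over the 16 libraries were most alike for Atf4 and Ppp1r15a. Pearson's r was 0.80 and Spearman's rho 0.89, and r was 0.62 without the 2 libraries farthest from the median of Atf4, LLC cachectic 1 and C26 cachectic 2. Atf4 and its target Ddit3 had an r of -0.19 and a rho of -0.09. Ddit3 and Asns ran in opposite directions, with an r of -0.51 and a rho of -0.61, and r was -0.61 without LLC cachectic 2 and KPC cachectic 1. Ddit3 and Chac1 had an r of -0.61 and a rho of -0.43, and r was -0.13 without the same 2 libraries. These are descriptions over libraries that share groups and depth, and the values include the differences between groups.

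**Figure D3:**
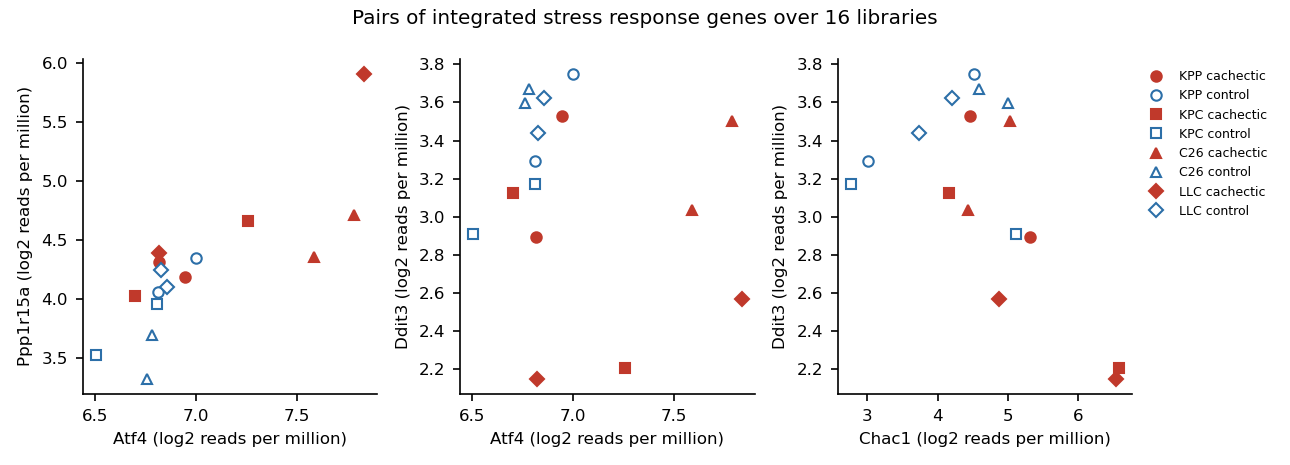
Log2 RPM of 3 pairs of members (Atf4 with Ppp1r15a, Atf4 with Ddit3, Chac1 with Ddit3), 1 point per library, filled for cachectic and open for control, with a symbol per model. Atf4 and Ppp1r15a line up over the 16 libraries (r = 0.80), whereas Pearson's r of Ddit3 and Chac1 was -0.61 with and -0.13 without LLC cachectic 2 and KPC cachectic 1.

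By correlation over the 16 libraries, the 5 genes most like Atf4 among all those tested were Yy1 (r = 0.971), Eif3l (0.971), Eif4g1 (0.966), Efl1 (0.965) and Eif3g (0.965). Eif3l, Eif3g and Eif4g1 encode translation initiation factor subunits, Efl1 a ribosome maturation factor, and Yy1 a transcription factor. Yy1, Eif3l, Efl1 and Eif3g were called in the mean of the models, and Eif4g1 was not (adjusted p = 0.105). These correlations used values that were not centred and include the differences between groups, so a shift shared by many genes also enters them. The 5 genes most like the mean z-score of the 6 members were Eml2 (0.944), Nol3 (0.940), Wwp2 (0.936), Tbrg1 (0.935) and Cars (0.933), the last a cysteinyl-tRNA synthetase.

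In the upstream arm of the pathway, the share of genes that rose was close to that of all genes. Of 20 listed genes for the eIF2 kinases, eIF2, eIF2B and the phosphatase, 4 rose and 0 fell in C26, 6 rose and 0 fell in the mean (27.3% of all genes rose), and 0 were called in KPP, KPC and LLC. The list median of the mean was 0.20, against 0.10 for all genes. Without each library in turn the count was 0 to 10 in C26, 0 to 12 in LLC and 3 to 14 in the mean; the 12 came without LLC cachectic 2, where 30.9% of all genes were called in LLC. Eif2ak4, the GCN2 kinase that senses uncharged tRNA, rose in the mean by 0.45 ± 0.08 (adjusted p = 0.00216), and so did its activator Gcn1l1 (0.56, adjusted p = 0.00364). Both held without each library in turn, with highest adjusted p-values of 0.00748 and 0.0112. The kinases Eif2ak1, Eif2ak2 and Eif2ak3 were not called in any model or in the mean. After centring, 3 of the 20 rose in the mean, against 19.8% of all genes, and 0 in C26, against 6.99%.

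Among 24 listed further targets and partners of ATF4, 8 rose and 1 fell in the mean, 4 rose in C26, 1 rose and 1 fell in each of KPP and LLC, and 0 were called in KPC. Of all genes 27.3% rose in the mean and 23.2% in C26, and the list medians there were 0.13 and 0.30, against 0.10 and 0.28 for all genes. Without each library in turn the count was 6 to 11 in the mean, 1 to 5 in C26, 0 to 4 in KPP, 0 to 3 in KPC and 0 to 8 in LLC, the 8 without KPC cachectic 1, KPC cachectic 2 or LLC cachectic 2. Eif4ebp1, the translation repressor 4E-BP1, had the largest of the named rises, at 1.86 ± 0.32 in the mean (adjusted p = 0.00145) and 2.67 ± 0.63 in C26 (adjusted p = 0.0137). Stc2, a secreted glycoprotein induced by stress, rose by 1.37 ± 0.17 in the mean (adjusted p = 0.000404), 2.18 ± 0.34 in C26 (adjusted p = 0.00331) and 2.06 ± 0.34 in KPP (adjusted p = 0.0161). Slc3a2, the heavy chain of amino acid transporters, rose by 0.83 ± 0.11 in the mean (adjusted p = 0.000572). These 3 mean changes stayed called without each library in turn, with a highest adjusted p of 0.00515. Cebpb, a partner of ATF4, rose by 0.67 ± 0.17 in the mean (adjusted p = 0.00842; not called when LLC was left out of the mean), and Ddit4, an mTOR inhibitor also induced by glucocorticoids, by 1.12 ± 0.34 (adjusted p = 0.0219). The Ddit4 call was lost without KPP control 1, KPP cachectic 1, KPC cachectic 1 or LLC control 1 (highest adjusted p = 0.0554), and the C26 call of Eif4ebp1 without C26 control 1, C26 control 2 or C26 cachectic 2 (highest adjusted p = 0.0856). The KPP call of Stc2 was lost without KPP control 1, KPP control 2 or KPP cachectic 1 (highest adjusted p = 0.162). Aldh18a1 was the gene that fell in the mean (-0.43, adjusted p = 0.0428) and in LLC (-1.29, adjusted p = 0.0362). Nupr1 was the gene that fell in KPP (-1.18, adjusted p = 0.0458). All of these lower calls were lost without many of the single libraries. Atf3, a stress factor often induced with Ddit3, changed by -1.40 ± 0.69 in LLC and did not pass (adjusted p = 0.193).

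Of 9 listed genes of serine, glycine and one-carbon metabolism, the branch to which Psat1 and Phgdh belong, 2 rose and 1 fell in the mean, against 27.3% and 13.8% of all genes, and after centring 1 rose and 2 fell, against 19.8% and 18.8%. Psph, the last enzyme of serine synthesis, fell by 0.53 on the log2 scale (SE 0.15, adjusted p = 0.0137), with a negative change in 4 of 4 models, and its call held without each library in turn (highest adjusted p = 0.0359) but not when LLC was left out of the mean. Shmt1, the cytosolic serine hydroxymethyltransferase, rose by 0.43 (adjusted p = 0.00427), while its mitochondrial counterpart Shmt2 and the folate enzyme Mthfd2 did not pass in any model or in the mean. The other rise, of the folate enzyme Aldh1l1 (0.38, adjusted p = 0.0455), lost its call without 13 of the 16 libraries. The list median of the mean was -0.14, below the 0.10 of all genes.

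Of the 20 cytosolic aminoacyl-tRNA synthetase genes, 7 rose and 0 fell in C26 and 10 rose and 0 fell in the mean, against 23.2% and 27.3% of all genes that rose, and none was called in KPP, KPC or LLC. Vars, which charges valine tRNA, rose by 0.89 ± 0.16 in the mean (adjusted p = 0.00202) and by 1.496 ± 0.325 in C26 (adjusted p = 0.0102), and the C26 call was lost without C26 control 1, C26 control 2 or C26 cachectic 2 (highest adjusted p = 0.0669). The C26 median of the list was 0.41, against 0.28 for all genes. After centring, 1 rose in C26 and 5 in the mean, against 6.99% and 19.8% of all genes. The counts also depended on single libraries. The C26 count fell without any 1 of the C26 libraries and rose without LLC cachectic 1 or LLC cachectic 2. In both of the latter fits the number of all genes called in C26 rose as well. Without LLC cachectic 2 the LLC count rose, and so did the number of all genes called in LLC.

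Of 25 listed genes of the unfolded protein response, 17 rose and 0 fell in C26, where 23.2% of all genes rose, with 25 of 25 positive and a median of 0.69, against 0.28 for all genes. None was called in KPP, KPC or LLC, 11 rose in the mean, and the F test between models called 0 of the 25. Xbp1, a transcription factor of this response, rose in C26 by 1.29 ± 0.16 (adjusted p = 0.00131) and in the mean by 0.53 ± 0.08 (adjusted p = 0.000925), and its C26 call held without each library in turn (highest adjusted p = 0.0226); the mean was not called when C26 was left out of it. Edem1, which clears misfolded glycoproteins, rose in C26 by 1.04 (adjusted p = 0.00421), a call lost only without C26 control 1 (adjusted p = 0.0512). The chaperone Hspa5, known as BiP, rose by 0.79 ± 0.27 in C26 (adjusted p = 0.0482), just within the threshold, and that call was lost without 12 of the 16 libraries. After centring, 8 of the 25 rose in C26, against 6.99% of all genes, and without 1 of the C26 libraries the count was 1 to 9. The LLC count, 0 in the fit of all libraries, was 9 without LLC cachectic 2, where 30.9% of all genes were called in LLC, and the count in the mean was 6 to 17 without each library in turn. The 9 macrophage markers summed to 255 to 264 RPM in C26 cachectic and 95.4 to 115 in C26 control libraries; their part in this result was not tested.

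Of 11 listed genes that relay mitochondrial stress or act as mitochondrial chaperones, 1 fell in C26 and 1 in LLC, against 5.12% and 3.66% of all genes. In the mean 2 rose and 1 fell, against 27.3% and 13.8% of all genes. The gene that fell was Oma1 each time, the protease that starts the mitochondrial signal to eIF2, at -0.29 in the mean (adjusted p = 0.00385). Its change was -0.38 in C26 (adjusted p = 0.0390) and -0.45 in LLC (adjusted p = 0.0474). Both of these calls were lost in a fit of the model's 4 libraries alone and without many of the single libraries. The mean call of Oma1 held without each library in turn. After centring, 0 of the 11 rose and 3 fell in the mean, against 19.8% and 18.8% of all genes. All 13 mitochondrially encoded genes fell in the mean, with a median of -0.57. In every list named here, the F test between models called 0 genes.

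**Figure D4:**
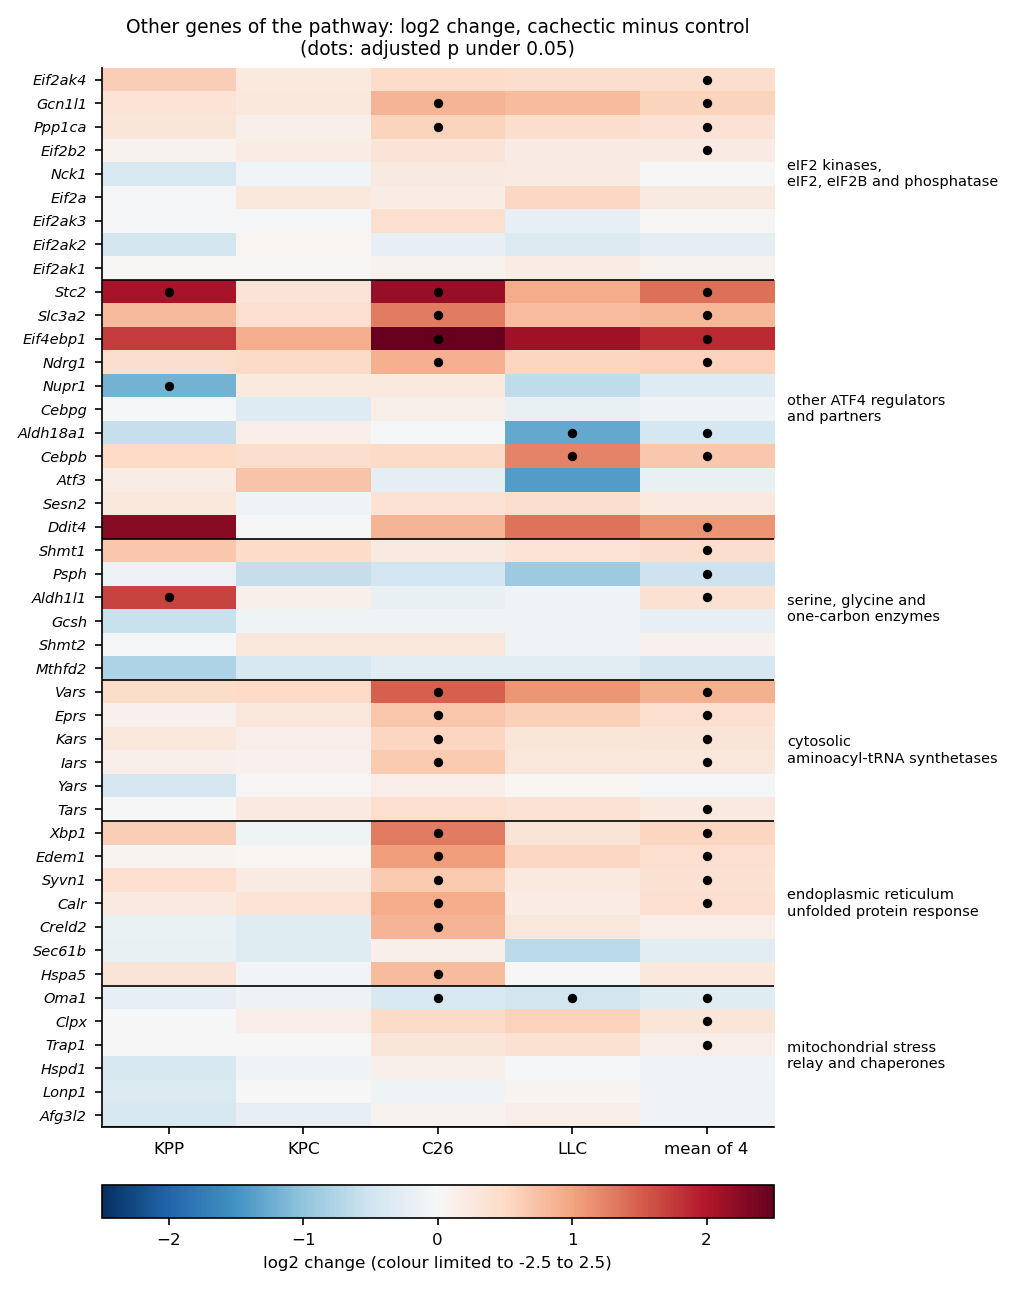
Colour map of the log2 change, cachectic minus control, of the pathway genes named by rule, 1 row per gene grouped by list and 1 column per model and for the mean of the 4 models; red is higher and blue lower in cachectic muscle, and a dot marks an adjusted p under 0.05. Eif4ebp1 and Stc2 are the most deeply coloured rows, at 2.67 and 2.18 in C26, and the C26 column holds the dots of the unfolded protein response outside the mean.

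Signals of other cell types differed between the groups as well. Summed macrophage markers ranged over 77.3 to 264 RPM in cachectic and 58.6 to 139 in control libraries, and erythroid markers over 329 to 3296 in cachectic and 144 to 292 in control libraries. The 9 fibroblast markers summed to 334 to 1113 RPM in cachectic and 753 to 1729 in control libraries, and the 10 endothelial markers to 531 to 757 in cachectic and 451 to 562 in control libraries. Of the 9 neutrophil markers 2 were tested, and these summed to 2.75 to 15.0 RPM in cachectic and 0.396 to 1.05 in control libraries, without overlap. The 5 tested genes listed as satellite cell markers (Pax7, Chrnb1, Cdh15, Vcam1 and Myod1) summed to 111 to 124 RPM in C26 cachectic and 63.6 to 71.0 in C26 control libraries. They summed to 45.9 to 124 in all cachectic and 41.3 to 71.0 in all control libraries. The list includes the acetylcholine receptor subunit Chrnb1, which muscle fibres also make, so this sum is not specific to satellite cells. The part of these cells in the member levels was not tested.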

How the data were processed

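Ribosomal RNA-depleted total RNA of tibialis anterior was sequenced from 16 libraries, 2 cachectic and 2 control for each of 4 models, grouped by their labels. The deposited table holds log2 values per gene made by the authors: reads were counted with featureCounts 1.4.5 on GRCm38 and processed with limma, per the submitters' processing notes, and the values step like log2 RPM of whole counts, each raised by 0.5. Whole reads were recovered from every value within a tolerance of 0.001. The sources used here do not give the annotation, the strand setting or the gene filter. All 12021 genes had a log2 value of at least 0 in 2 or more libraries and were tested.

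Group means were fitted to the deposited log2 values with limma 3.58.1 (R 4.3.3; moderated variance with a trend, two-sided) in 1 fit of 16 libraries, and p-values were Benjamini-Hochberg adjusted over all genes. The contrasts were cachectic minus control per model, their equally weighted mean, the 6 differences between models, and F tests between models and between control groups. The scripts were tested on simulated data. Reads per kilobase used GENCODE M21 exon lengths; counting error alone is covered by the read numbers given. Same-numbered libraries of a model showed little correlation in their deviations, and no pairing was used. The members and gene lists were chosen with earlier results of these data known, and their counts are descriptions. Genes outside the members were named by rule: per list, those with the lowest adjusted p in the mean and in each model, and the named kinases and enzymes of the pathway. Alternatives covered scaling, filters, variance models, a replicate block and leaving out each library.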

Additional observations from a re-analysis of the deposited data

How the results depend on the processing

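The number of called members in C26 was 2 in the report, with 28.4% of all genes called. After quantile normalization it was 1. It was also 1 with genes of a mean log2 level of at least 2, and with a log2 change of at least 1. With each library centred on its median it was 0, where 6.99% of all genes rose and 9.25% fell. In LLC (1, with 7.08% of all genes) it was 0 with the 4 LLC libraries alone. In the mean (4, with 41.1% of all genes) it was 0 with a log2 change of at least 1, 1 with C26 left out and 1 with LLC left out. The shares of all genes called in the other alternatives are not given here, so these counts describe only the members. Leaving out libraries moved the member counts too, as well as the number of all genes called. The share of called genes that were higher in C26 was 82.0% in the report, 43.0% after centring and 46.6% after quantile normalization, and in the mean 66.5% in the report and 51.4% after centring.

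Among changes that did not pass, the sign turned without single libraries: in KPP, Atf4 ranged over -0.12 to 0.070, Atf5 over -0.040 to 0.50, Ddit3 over -0.63 to 0.0068, Asns over -0.28 to 0.53 and Ppp1r15a over -0.10 to 0.20; in KPC, Ddit3 ranged over -0.84 to 0.085 and Atf5 over -0.19 to 0.34; in C26, Chac1 over -0.36 to 0.24; in LLC, Atf4 over -0.022 to 0.99 and Atf5 over -0.94 to 0.14. Without KPC cachectic 2 and LLC cachectic 1, Atf5 was -0.19 in KPC and -0.012 in the mean and Atf4 was -0.022 in LLC. Atf5 was -0.033 in the mean with C26 left out, and Aldh1l1, a folate enzyme called in the mean at 0.38, was -0.057 with KPP left out. Beyond the smaller sets of libraries and genes that these alternatives build in, the cause was not tested. The fit of 4 libraries gives no mean or F test, and the minimum change does not apply to F tests.

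Same-numbered libraries of a model correlated at -0.04 to 0.09 in their deviations. This check compares libraries within a model only, so it cannot show whether the numbers mark a pairing or a batch. With the replicate block the members called were 3 in C26, where Ppp1r15a passed (adjusted p = 0.0490), and 0, 0, 1 and 4 in KPP, KPC, LLC and the mean. The shares of all genes called with the block are not given here, so these counts describe only the members. With 2 libraries a group, the members' standard errors within a model were 0.27 to 0.85, so moderate changes of single members could not be resolved there, and Asns rested on 33 to 119 reads per library.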
